A study of Homo sapiens with 2 samples.

Results

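The heterochromatin blocks of 1q12, 9q12 and 16q11 are the secondary constrictions of chromosomes 1, 9 and 16, large bands beside the centromere on the long arm. The peaks described here are those of an anti-TRF2 chromatin immunoprecipitation whose summit lay, on hg38, at 125.1 to 143.2 Mb of chromosome 1, 45.5 to 61.5 Mb of chromosome 9 or 38.4 to 47.0 Mb of chromosome 16. There were 326 such peaks among the 24258 of the list, or 1.34% (exact binomial 95% interval 1.20% to 1.50%). Of these, 219 lay in 9q12, 69 in 1q12 and 38 in 16q11.

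TRF2 is a subunit of shelterin, the complex that caps telomeres, and it binds their double-stranded TTAGGG repeats. In human cells the constrictions of chromosomes 1, 9 and 16 are built mainly of the classical satellites 2 and 3, tandem arrays related to a short GGAAT unit, beside the alpha satellite of the centromere proper. They are methylated, late-replicating and rich in heterochromatin proteins. They decondense and recombine in ICF syndrome, an inherited immune deficiency with centromere instability, and the array of 9q12 is transcribed in stress bodies after heat shock. In the assembly used here most of each block stands as a run of unknown bases, on which no read can be placed.

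HCT116, an established colon cancer cell line, was fixed with 1% formaldehyde 72 h after plating. The chromatin was sonicated to 300 to 400 bp, and 100 μg of it was taken per immunoprecipitation with 5 μg of antibody to TRF2. The other library was input chromatin of the same line, without antibody, and the labels give no further treatment, although the name of the peak list mentions a control siRNA. With 1 library of each kind no difference between samples could be tested. Peaks of 1 library are not replicates, so the comparisons between blocks are descriptions, and the intervals cover counting error only. The sequences of the peaks were not analysed here.

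The peaks of each block were packed at the ends of a stretch that held none. In 1q12 no summit lay between 125184511 and 143184927 on chromosome 1, a gap of 18.0 Mb that made up 99.4% of the block. The empty stretch of 9q12 ran from 45514319 to 60532332 on chromosome 9 and covered 15.0 Mb, or 93.9% of the block. That of 16q11 ran from the block's edge to 46380890 on chromosome 16, covering 7.98 Mb (92.8%). The 69 peaks of 1q12 were divided into 46 on the short-arm side and 23 on the long-arm side, whereas 9q12 had 4 and 215, and 16q11 had 0 and 38. Over the whole bands the density was 3.81 peaks per Mb in 1q12, 13.7 in 9q12 and 4.42 in 16q11, and the empty stretches weigh on each of these values. At the other edges the nearest summits outside lay 15.6 kb before 1q12 (fold 3.34), 323 kb beyond 9q12 (3.90), and 120 kb before and 4886 kb beyond 16q11 (1.90 and 3.41). The first summit inside 1q12 lay 5.91 kb from its edge (fold 3.41).

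**Figure D1:**
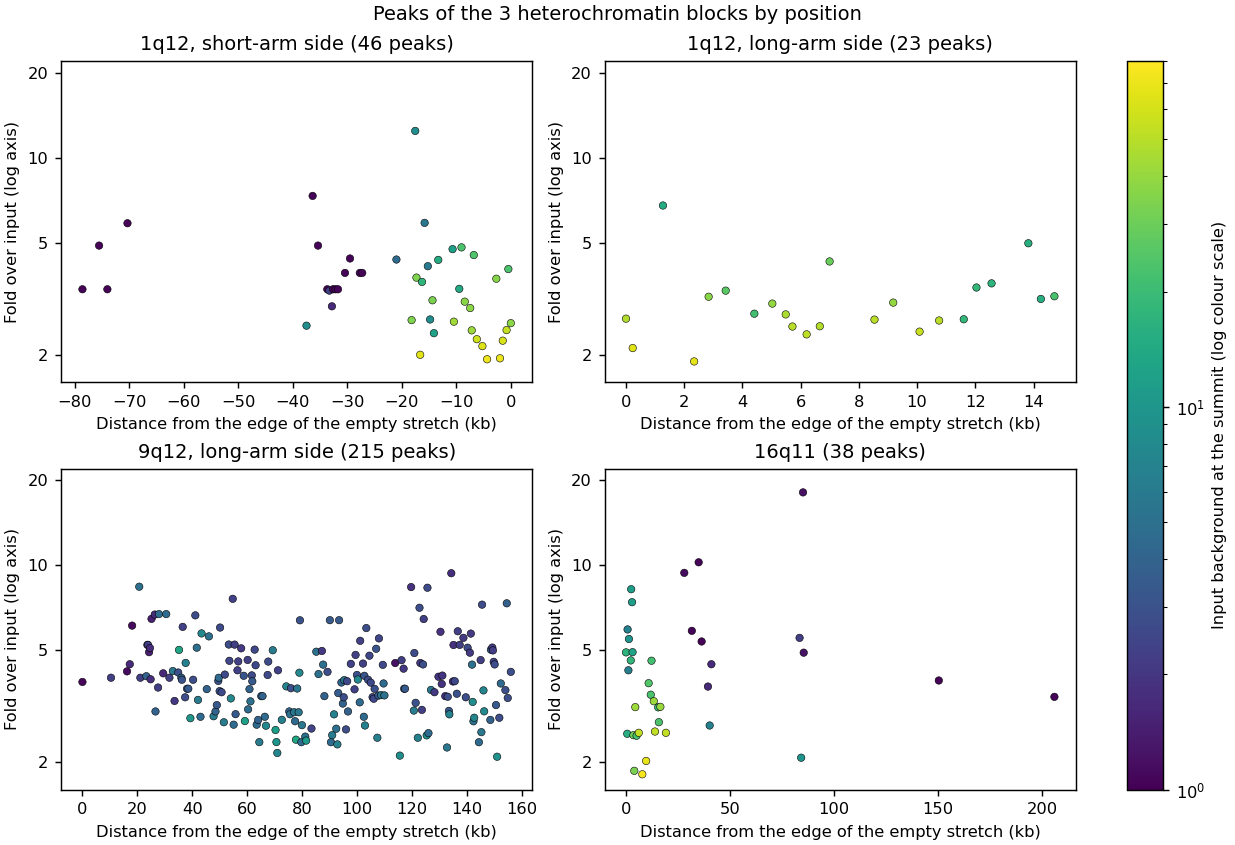
Fold over input (vertical log axis) of each block peak by the distance of its summit in kb from the edge of the block's empty stretch, coloured by the input background in reads; each point is 1 peak. The 4 short-arm peaks of 9q12 are not drawn. In 1q12 and 16q11 the highest backgrounds lie within 20 kb of the empty stretch, while the 215 peaks of 9q12 spread over 156 kb at backgrounds of 1.07 to 13.5.

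Within the ends that carried them, the peaks formed runs, defined here as summits no more than 20 kb from the next. The long-arm run of 9q12 was the longest of the 3 blocks, with 215 peaks over 156 kb from 60532302 to 60688402, or 1.38 peaks per kb (exact Poisson 95% interval 1.20 to 1.57). Inside the band, the long-arm run of 1q12 had 23 peaks over 15.1 kb from 143184629 to 143199679. Their density was 1.53 per kb (0.969 to 2.29). The band edge cut this run, which in full held 140 peaks over 127 kb. The main run on the short-arm side of 1q12 had 42 peaks over 37.6 kb from 125146961 to 125184564, at 1.12 per kb (0.805 to 1.51). In 16q11 the main run had 32 peaks over 41.4 kb from 46380681 to 46422037, at 0.774 per kb (0.529 to 1.09). The intervals of the first 3 densities overlap one another. That of 16q11 overlaps both intervals of 1q12 and lies below that of 9q12. By bases covered the order was another one, since wide peaks lower the count per kb. Peaks covered 38.9% of the 16q11 run and 21.5% of the 9q12 run. In 1q12 they covered 56.6% of the long-arm run and 26.8% of the short-arm one. Across the whole list, 136 runs of 20 or more peaks had a median of 0.475 peaks per kb and a range of 0.148 to 2.13.

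Fold over input is the authors' deposited ratio of reads after immunoprecipitation to the input background at a summit. That background is given on the scale of the immunoprecipitated reads and is not a raw count of input reads. It had a floor of 1.05 reads, at which 22 of the 326 peaks (6.75%) and 29.5% of the list stood. The floor is a lowest value, not a count made at those summits. Fold was lower in 1q12 than in the list and near it in the other 2 blocks. It ran from 1.89 to 12.4 in 1q12 with a median of 3.23 (exact interval of the median 2.80 to 3.43). In 9q12 it ran from 2.09 to 9.37 with a median of 3.88 (3.65 to 4.03), and in 16q11 from 1.81 to 18.1 with a median of 3.77 (3.13 to 4.90). The whole list had a median of 4.06, the centromere bands of the same 3 chromosomes 3.85 (3.78 to 3.90), and their arms 3.90 (3.76 to 3.90). The interval of the 1q12 median lay below those of all of these sets and of 9q12. That of 16q11 overlapped each of them.

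The blocks differed far more in depth than in fold. Pileup, the number of immunoprecipitated reads over the summit, was recovered from fold and p-value together with the input background on the same scale. The median pileup was 93 reads in 1q12 (6 to 138), 62.5 in 16q11 (6 to 138) and 16 in 9q12 (7 to 69). The median background was 22.6 reads in 1q12, 13.9 in 16q11 and 3.15 in 9q12, against 1.69 over the list. The 2 blocks that were deep after immunoprecipitation were thus deep in the input too. Of the 69 peaks of 1q12, 47 (68.1%) had 50 or more reads, as had 22 of 38 in 16q11 (57.9%) and 3 of 219 in 9q12 (1.37%), against 5.75% of the list. The centromere band of chromosome 9 was shallower still than the 9q12 block, with a median of 9 reads over a background of 1.13, and that of chromosome 1 had 27 reads over 6.20.

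**Figure D2:**
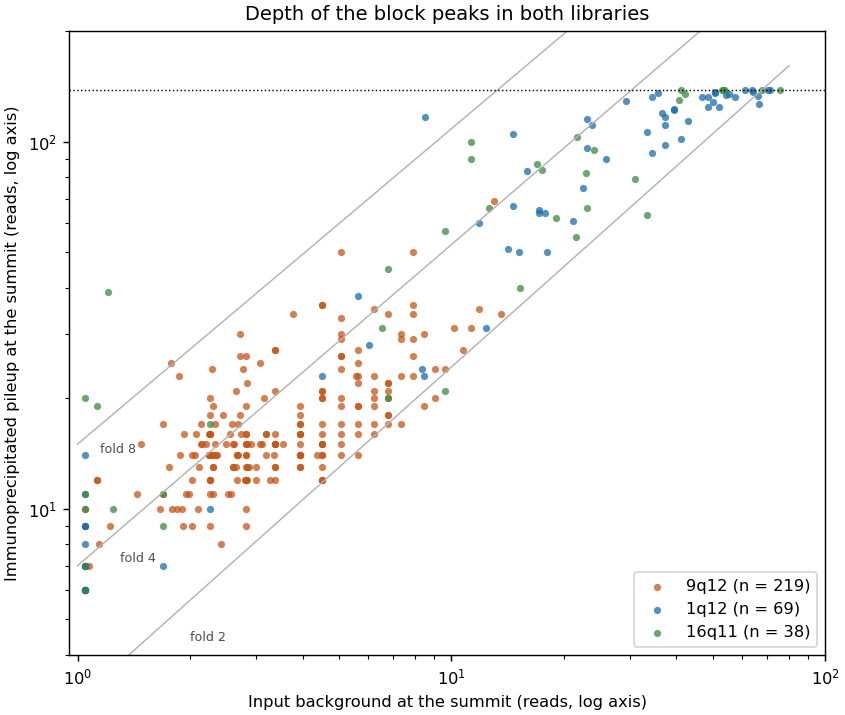
Immunoprecipitated pileup (vertical log axis, reads) against input background (horizontal log axis, reads) at the summit of each peak in 9q12, 1q12 and 16q11; the grey lines mark folds of 2, 4 and 8 and the dotted line the highest pileup of the list, 138 reads. Peaks of 1q12 and 16q11 reach that line, and no 9q12 peak passes 69 reads.

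The highest pileup of the list, 138 reads, was a ceiling that 38 peaks shared (0.157%). Of those 38, 10 lay in these blocks: 6 in 16q11 and 4 in 1q12. None lay in 9q12 (0 of 219, exact upper limit 1.67%) or in the centromere bands of the 3 chromosomes. The peaks at the ceiling had folds of 1.93 to 2.25 in 1q12 and 1.81 to 3.30 in 16q11. At that pileup the deposited fold falls as the background rises. Without the peaks at the ceiling the median fold was 3.38 in 1q12 and 4.35 in 16q11. The ceiling peaks of lowest fold had backgrounds of 75.6 in 16q11 and 71.1 in 1q12. These stood near the highest background of the whole list, 77.8. Whether the background has a ceiling of its own was not tested, nor how far a ceiling bears on the folds. The order of peaks by fold within 1q12 and 16q11 is therefore not read as an order of occupancy. Over the 3 blocks, the 42 peaks with 100 or more reads had a median fold of 2.66 over a background of 47.7 reads, and the 181 with under 20 reads had a median fold of 3.88 over 2.61.

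Strong peaks, taken as those whose −log10 q was at least 5, were called in 30.0% of the list. The share was 75.4% in 1q12 (52 of 69, exact binomial interval 63.5% to 84.9%) and 73.7% in 16q11 (28 of 38, 56.9% to 86.6%). It was 26.5% in 9q12 (58 of 219, 20.8% to 32.9%), an interval that holds the share of the list. The centromere bands of the same chromosomes gave 51.4% on chromosome 1, 13.5% on chromosome 9 and 25.0% on chromosome 16, and the 3 sets of arms together 12.2%. A q-value depends on depth as well as on fold: all 42 block peaks with 100 or more reads were strong, against 27 of 181 (14.9%) with under 20. At q under 0.05, which 79.3% of the list passed, the shares were 89.9% in 1q12, 86.8% in 9q12 and 94.7% in 16q11, with intervals that overlap. By fold the order of the blocks was another one. Folds of 5 or more, held by 25.2% of the list, were found in 5 of 69 peaks of 1q12 (7.25%), 46 of 219 in 9q12 (21.0%) and 10 of 38 in 16q11 (26.3%).

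**Figure D3:**
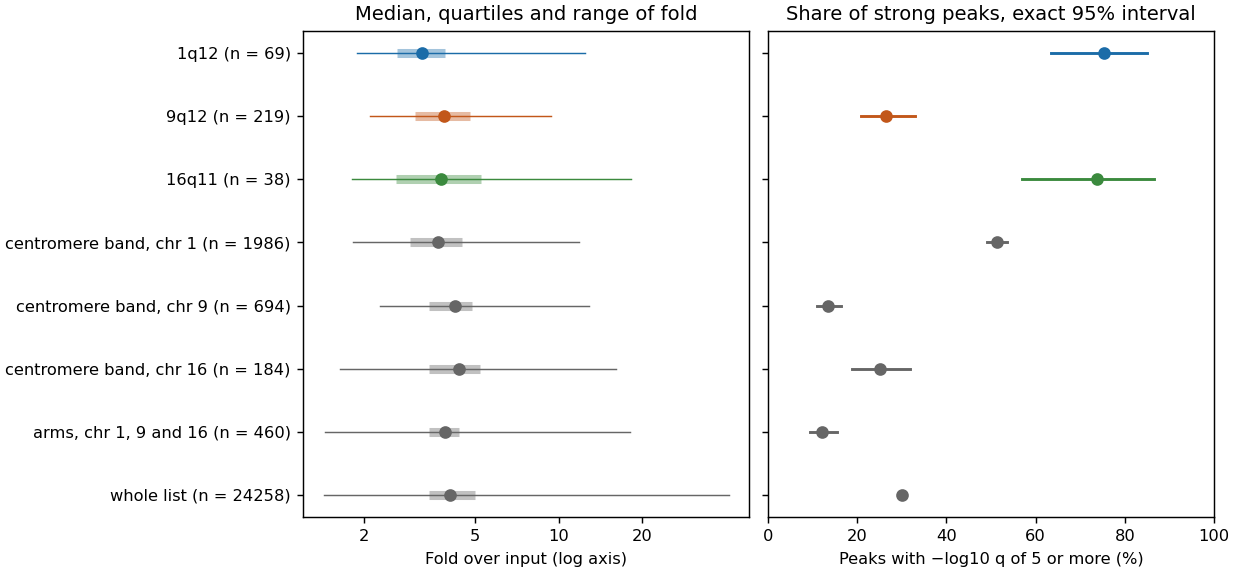
Left, fold over input (log axis) for each set of peaks, with the median as a point, the quartiles as a thick line and the range as a thin line. Right, the percentage of strong peaks with its exact 95% interval; 1q12 (75.4%) and 16q11 (73.7%) lie to the right of the whole list (30.0%), and the 9q12 interval includes it.

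On the short-arm side of 1q12 the depth changed abruptly along the chromosome. The first 17 peaks, with summits from 125105914 to 125157246, were shallow, with 6 to 23 reads, and 14 of them lay at the lowest background of the list (1.05 reads). From 125163521 to the edge of the empty stretch at 125184511, the next 29 peaks had 23 to 138 reads over backgrounds of 4.51 to 71.1. Peaks covered 3.19% of the bases in the first stretch and 41.6% in the second. Strong peaks numbered 2 of 17 and 27 of 29, while the median folds were 3.41 and 3.09. This division was made after the values were seen, at the largest step in the running median of the background.

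The peak of highest fold in 1q12 stood in the deep stretch, from 125166911 to 125167037. It had a fold of 12.4, with 117 reads over a background of 8.49, and its −log10 q of 82.9 ranked 16 in the list. Its neighbours on either side, with summits at 125166306 and 125167197, had 93 and 132 reads but backgrounds of 34.4, so their folds were 2.65 and 3.76. The 3 peaks were thus alike in immunoprecipitated reads and unlike in input. The second peak by fold, from 125148102 to 125148180 in the shallow stretch, had a fold of 7.32 from 14 reads over 1.05. The next after the third (fold 6.77, on the long-arm side) had folds of 5.87, from 125168651 to 125168865 (38 reads over 5.64), and 5.85, from 125114138 to 125114221 (11 reads over 1.05). The sixth, from 143198548 to 143198787 on the long-arm side, had a fold of 4.97 from 83 reads.

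On the long-arm side of 1q12 all 23 peaks were strong, with 50 to 137 reads over backgrounds of 14.7 to 66.6. They covered 56.6% of their 15.1 kb. The highest fold there was 6.77, in a peak of 919 bp from 143185695 to 143186613 (105 reads over 14.7), and the median was 2.80. The edge of the band at 143.2 Mb cut this run: the last summit inside lay 357 bp before the edge (fold 3.23) and the first outside 363 bp beyond it (fold 4.57). The run went on for 111 kb with 117 further peaks, 112 of them strong (95.7%), with a median fold of 3.20 and a median of 108 reads over a background of 28.8. Among those outside peaks 10 stood at the ceiling of 138 reads.

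In 16q11 the same pattern of deep peaks beside the empty stretch was followed by scattered ones. The first 25 peaks, from 46380681 to 46401657, covered 15.1 of 21.0 kb (71.8%), with 31 to 138 reads over backgrounds of 6.54 to 75.6, and 23 of them were strong. They included the widest peak of the whole list, 3427 bp from 46398231 to 46401657, and 3 more wider than 1 kb. Across the list 85 peaks (0.350%) were that wide, 4 of them in 16q11, 2 in 1q12 and 0 in 9q12. The widest peak had a fold of 2.55 with 138 reads over 53.6. The remaining 13 peaks, from 46408773 to 46586984, had 6 to 39 reads over 1.05 to 9.59, and 5 were strong. As in 1q12, this division followed the largest step in the background and was made after the values were seen.

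The highest fold of all 326 peaks was in the scattered part of 16q11. The peak from 46465965 to 46466167 had a fold of 18.1, with 39 reads over a background of 1.21, and a −log10 q of 40.0, and its fold ranked 39 in the list. It stood in a group of 4 peaks within 2.08 kb, the others having folds of 5.53, 2.08 and 4.90. The next 2 of the block by fold were 10.2, from 46415727 to 46415856 (20 reads over 1.05), and 9.40, from 46408773 to 46408965 (19 reads over 1.13). The strongest of the deep part was 8.22, from 46383320 to 46383600, with 100 reads over 11.3. Beside it lay the peak from 46383716 to 46383841, of fold 7.40. The sixth, from 46381594 to 46381695, had a fold of 5.92.

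The 9q12 peaks were many, and narrower than those of the other 2 blocks. Their median width was 119 bp (69 to 550 bp), against 172 bp in 1q12 and 183 bp in 16q11. It was 104 bp in the list and 95 bp in the centromere band of chromosome 9. Along the long-arm run the median fold in successive windows of 20 kb lay between 3.19 and 4.20, with 5 peaks in the first window and 27 to 36 in each of the others. The lowest median was in the fourth window, from 60592302, where the median background was also the highest, 4.51 reads. The peak of highest fold, 9.37, lay from 60666481 to 60666745 (25 reads over 1.77). It was followed by 8.39 from 60552937 to 60553110 (50 reads over 5.08), 8.37 from 60652017 to 60652248 (23 reads over 1.87) and 8.32 from 60657950 to 60658030 (30 reads over 2.72). The fifth and sixth were 7.60 from 60586891 to 60587213 and 7.33 from 60686518 to 60686953. The 4 peaks on the short-arm side, all up to 45514446, had 7 to 12 reads, folds of 3.90 to 6.11, and 3 of them stood at the lowest background. They adjoined the centromere band, in which the closest peak outside lay 927 bp from the edge, while the first inside lay 323 bp from it.

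Distances between summits in the long-arm run of 9q12 favoured multiples of about 171 bases. Alpha satellite, the repeat of human centromeres, is built of tandem monomers of about that length. Spacing was measured as the phase concentration of the distances between pairs of summits, at each period from 100 to 400 bases. It runs from 0 (no preferred remainder after division by the period) to 1 (the same remainder for every distance), whatever that remainder is. Closeness to whole multiples is measured by the share of pairs within 20 bases of one. For the 612 pairs less than 2 kb apart the highest concentration, 0.188, was at a period of 172 bases. For the 645 pairs 2 to 4 kb apart it was 0.172 at 170 bases, and for the 1226 pairs 4 to 8 kb apart it was 0.185 at 170 bases. More than 16 bases away from those periods the concentration reached 0.0794, 0.0998 and 0.0577. Of the pairs in the 3 ranges, 34.6%, 34.7% and 34.4% lay within 20 bases of a multiple, where an even spread would put 23.8%, 24.1% and 24.1%. Those periods were chosen on these same pairs, so part of the excess over an even spread is built in.

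The scan was repeated on each part of the run, and the parts, from the same library, are not replicates. The first 107 summits gave 172, 166 and 170 bases in the 3 ranges, with concentrations of 0.217, 0.116 and 0.202. The other 108 gave 172, 171 and 170 bases, with 0.168, 0.243 and 0.189. Only the middle range of the first part was weak, its next highest concentration being 0.0999. The ranges share no pair but do share summits, and no test was run on these values.

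The other sets did not have their highest concentration near this period. In the centromere band of chromosome 9, with 372, 438 and 854 pairs in the 3 ranges, the concentration at the periods of the 9q12 run was 0.0313, 0.0319 and 0.0227. In the centromere band of chromosome 1, with 2601, 2974 and 5943 pairs, it was 0.0435, 0.0413 and 0.00419. In 1q12, with 147, 140 and 226 pairs, it was 0.0153, 0.0949 and 0.0462. Other periods reached 0.218, 0.180 and 0.157 there, at 213, 147 and 220 bases. These values were of the same size as those of the 9q12 run, but the middle range had a period far from the others. In 16q11 the concentration at the 9q12 periods was 0.0192, 0.172 and 0.171, but with 73, 60 and 69 pairs. Other periods there reached 0.295, 0.261 and 0.284, at 219, 214 and 153 bases, so no period could be read from so few pairs. Periods of 213 to 220 bases thus recurred in 1q12 and 16q11, though not in every range, and this was not tested. At the periods chosen on the 9q12 run, the share of pairs within 20 bases of a multiple was 23.3%, 28.3% and 31.9% in 16q11. In 1q12 it was 23.8%, 27.9% and 22.6%. In the centromere band of chromosome 16, with 58, 65 and 98 pairs, it was 29.3%, 23.1% and 34.7%. In that of chromosome 9 it was 25.0%, 24.9% and 23.8%, and in that of chromosome 1 23.8%, 26.1% and 24.1%. A share as high as that of 9q12 in a single range was thus not particular to it. Whether the 9q12 run consists of alpha satellite was not analysed here.

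**Figure D4:**
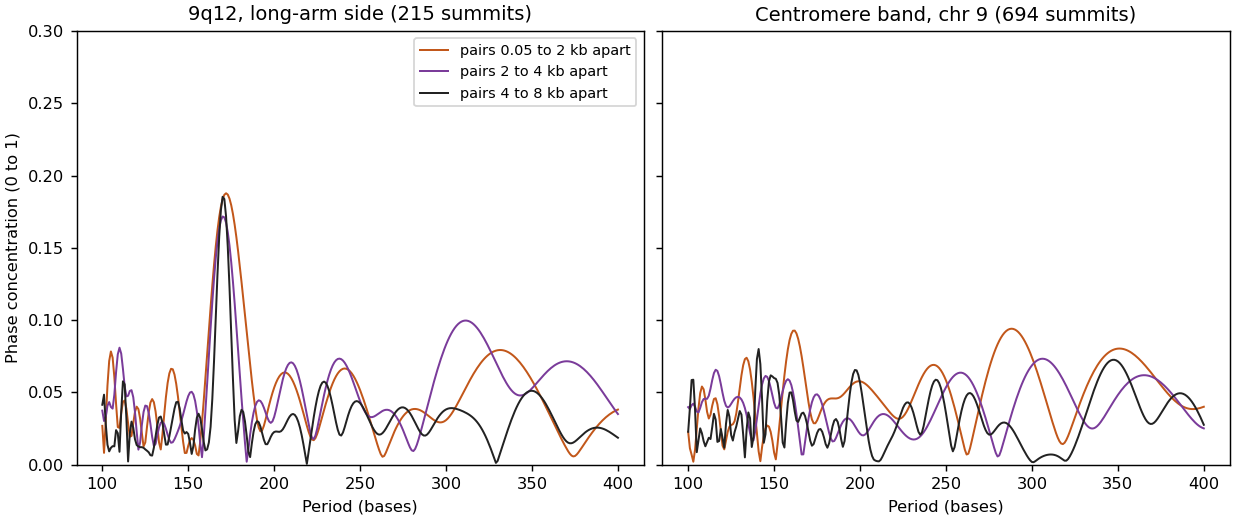
Phase concentration of the distances between summits (vertical axis, 0 to 1) against period in bases, for pairs in 3 ranges of distance, in the long-arm run of 9q12 (left, 215 summits) and the centromere band of chromosome 9 (right, 694 summits). The 3 lines on the left peak together at 170 to 172 bases, with values of 0.172 to 0.188, and those on the right stay at or below 0.0941.

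Genes were few in the blocks. RefSeq lists 32 genes there, 16 in 9q12, 16 in 16q11 and 0 in 1q12, of which 11 are protein-coding. A summit lay inside or within 3 kb of 2 of the 32, both in 16q11, against 3.09% of 58961 genes over the genome, and a count of 2 is too small to set against that share. SHCBP1 (chromosome 16, 46578591 to 46621379), which encodes a partner of the adaptor SHC1, held the last peak of the block, from 46586916 to 46586984, with a fold of 3.41, 6 reads and a −log10 q of 0.811. ANKRD26P1 (46469337 to 46569097), a pseudogene of ANKRD26, held the peak from 46531300 to 46531368, with a fold of 3.90, 7 reads and a −log10 q of 1.53. A second summit, of the peak from 46466316 to 46466399 with a fold of 4.90, 10 reads and a −log10 q of 3.46, lay within 3 kb of ANKRD26P1, outside the gene, and the block's peak of highest fold lay a little beyond that distance. Exon structure was not used.

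The other protein-coding genes of 16q11 had their nearest summit, that in SHCBP1, 69.2 kb or more away. They are VPS35, a retromer subunit, ORC6 of the origin recognition complex, MYLK3, a myosin light chain kinase, C16orf87, GPT2, an alanine transaminase, and DNAJA2, an HSP70 co-chaperone. In 9q12 the peaks ended at 60688402, and no summit lay in the last 812 kb of the block, where all 16 of its genes are. The nearest protein-coding gene there was SPATA31A5, a member of a spermatogenesis-associated family, 226 kb from a summit. LOC107984126 was 314 kb away, SPATA31A7 502 kb and CNTNAP3C, of the contactin-associated family, 362 kb.

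Genes that set or read the state of such heterochromatin were looked up in the same list. None of 19 had a summit inside or within 3 kb. Of all 19866 protein-coding genes 4.74% had one, a share at which a list this short can hold none, so nothing is read from that count. The list comprised the ICF syndrome genes DNMT3B, ZBTB24, CDCA7 and HELLS, the heat shock factor gene HSF1, SAFB of the stress bodies, the HP1 genes CBX1, CBX3 and CBX5, and the histone methyltransferase genes SUV39H1, SUV39H2, SETDB1, EHMT1 and EHMT2. It also held TRIM28, ATRX, DAXX, UHRF1 and DNMT1. The closest were DNMT3B, 35.7 kb from a summit of fold 5.09, and TRIM28, 36.0 kb from one of fold 9.38. The smallest pileup in the list was 5 reads, so weaker signal at these genes was not detectable at this depth.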

How the data were processed

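TRF2 chromatin immunoprecipitation of HCT116 was compared with input chromatin, 1 library each, in the authors' deposited peak list. Tools named in the submitters' processing notes are MACS2 2.1.0, Bowtie2 2.3.2, ChIPseeker 1.36.0 and HOMER, with the builds hg38 and GRCh38. Read totals, settings and how multiply aligned reads were handled are not given there. The deposited fold is a ratio of pileup to input background at the summit, a background nowhere below 1.05 reads. The −log10 of p-value and q-value, as deposited, belong to the same position. The deposited score is that −log10 p times 10, cut to a whole number, and the deposited summit offset is in bases.

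Pileup and background were recovered from fold, as (pileup + 1) over (background + 1), and p, as the upper Poisson tail. A whole pileup matched in 100% of peaks (tolerance 0.001 on −log10 p). On simulated data the true pileup was returned for 100% of 2263 peaks, and the period scan found the planted period in 50 of 50 sets. Bands came from circlize 0.4.16 (R 4.3.3), genes from RefSeq (GRCh38.p14). Arms leave out centromere, stalk and variable bands and 2 Mb around them. Coordinates are 1-based. No genome sequence was used, so the planned motif counts were not made. A planned member of the heterochromatin gene list is not reported here. Named peaks are the 6 of highest fold per block. Named genes are the protein-coding genes of the blocks and others with a summit. Software was matplotlib 3.10.9, pandas 2.3.3, scipy 1.17.1 and numpy 2.4.6 under Python 3.11.15. Intervals are exact at 95%. The members and gene lists were chosen with earlier results of these data known.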

Additional observations from a re-analysis of the deposited data

How the results depend on the processing

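No paired analysis was possible because each kind of library was deposited once. Counting by interval overlap or by the middle of the interval left the number of peaks within 1 of 69, 219 and 38 in 1q12, 9q12 and 16q11. Moving the block edges outward by 100 kb raised 1q12 from 69 to 202 peaks, since its long-arm run crosses the edge, and left the other counts within 1.5 times. At a −log10 q of 5 or more 9q12 fell from 219 to 58 peaks, with a median fold of 5.45. Peaks joined within 1 kb numbered 13, 34 and 9, with median folds of 4.39, 5.77 and 5.85 when the highest of each cluster was kept, and 46.2%, 70.6% and 55.6% of clusters held a strong peak, so the order of the blocks by that share depends on whether peaks or clusters are counted. Joined within 500 bases they numbered 22, 81 and 16, within 5 kb 4, 5 and 5, and within 20 kb, a distance chosen after seeing the data, 3, 2 and 4. With a fold of 5 or more as the rule the shares were 7.25% in 1q12 and 26.3% in 16q11. At q under 0.05 they were 89.9%, 86.8% and 94.7%, against 79.3% of the list. Genes with a summit within 10 kb numbered 2, as did those with one inside. Without the peaks at the ceiling of 138 reads the median folds were 3.38 in 1q12 and 4.35 in 16q11.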
